A study of Mus musculus with 12 samples.

Results

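The genes described here encode 10 transporters of the bile canalicular (apical) membrane of the hepatocyte and were taken from a list of names matched by symbol among the 53715 genes of the count table: Abcb11, Abcb4, Atp8b1, Abcg5, Abcg8, Abcc2, Abcb1a, Abcg2, Slc47a1 and Atp7b. All 10 were found and all 10 passed the filter on low counts that kept 17779 genes for testing. RNA was sequenced in 3 groups of 4 biological replicates from C57BL/6JOlaHsd mice. Hepatoblasts were E14.5 liver cells enriched on magnetic columns by the surface protein Dlk1, pooled from several embryonic livers at each isolation and processed at once. The study's methods state that some Dlk1+ cells of this stage carry the bile duct marker Sox9. Diff. hepatocytes were such E14.5 Dlk1+ cells after 4 days on fibronectin in a differentiation medium with serum, Matrigel and dexamethasone, so this group differs from the others by culture as well as by stage. Mature hepatocytes were isolated by collagenase perfusion from adult males of 8 to 12 weeks and processed at once. The libraries held 19581551 to 25216977 reads assigned to genes.

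Bile is formed at the canaliculus, a narrow lumen between neighbouring hepatocytes, into which ATP-driven pumps move solutes against their gradients. Export of bile salts draws water and drives flow, while phospholipid and cholesterol leave beside them and keep the detergent action of bile salts in check. Organic anions such as conjugated bilirubin, drugs and their metabolites, organic cations and copper leave by pumps and exchangers of their own. Several of these genes are known targets of nuclear receptors, among them the bile acid receptor (Nr1h4, also FXR) for Abcb11 and the oxysterol receptors (Nr1h3 and Nr1h2, also LXR) for Abcg5 and Abcg8.

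Some of these genes lie next to each other. In GRCm38, Abcb11 (ENSMUSG00000027048) is at chr2:69238282-69342616 on the minus strand, Abcc2 (ENSMUSG00000025194) at chr19:43782192-43840740 and Abcg2 (ENSMUSG00000029802) at chr6:58584523-58695676, both on the plus strand. Atp7b (ENSMUSG00000006567) is at chr8:21992785-22060305 and Slc47a1 (ENSMUSG00000010122) at chr11:61343401-61378345, both on the minus strand. Atp8b1 is ENSMUSG00000039529. Abcb1a (ENSMUSG00000040584, chr5:8660077-8748575) and Abcb4 (ENSMUSG00000042476, chr5:8893717-8959231) lie on the plus strand of the same chromosome with Abcb1b (ENSMUSG00000028970, chr5:8798147-8866315) between them. Abcg5 (ENSMUSG00000040505, chr17:84658234-84683011, minus strand) and Abcg8 (ENSMUSG00000024254, chr17:84676302-84700333, plus strand) overlap in their annotated spans and are transcribed away from each other.

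For 3 of the genes that rose in both hepatocyte groups, Abcb11, Abcg5 and Abcg8, the bases before the start site are shown. Abcg5 and Abcg8 share the stretch. Abcb4 also rose in both groups and is not printed, and its window held no match to any of the motifs named below. The RefSeq promoter windows (GRCm38.p6) held entries for 8 of the 10 genes, and 250 bases before each start were searched on both strands for AGGTCA (the half-site of nuclear receptors), for the inverted repeat of this half-site with 1 base between the arms (AGGTCA, any base, then TGACCT, with at most 1 base differing, so that a match can overlap one of the half-site alone) and for AGATAA (the motif of GATA factors). The starts of Abcg5 (84683011) and Abcg8 (84683121) had 109 bases between them, chr17:84683012-84683120, printed on the plus strand with matches to AGATAA, here read as its reverse complement, in capitals. The stretch of 100 bases before Abcb11, chr2:69342617-69342716, is printed on the minus strand with the match to the inverted repeat in capitals.
between Abcg5 and Abcg8: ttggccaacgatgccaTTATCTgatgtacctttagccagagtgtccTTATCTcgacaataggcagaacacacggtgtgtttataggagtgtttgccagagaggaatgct
before Abcb11: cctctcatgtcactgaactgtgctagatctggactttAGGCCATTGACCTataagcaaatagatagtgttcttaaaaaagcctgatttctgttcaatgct

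The stretch shared by Abcg5 and Abcg8 held 2 matches to AGATAA. Of all 32851 promoter windows, 3.98% held at least 1 match in the 109 bases before the start and 0.186% held 2 or more. The match before Abcb11 began 63 bases before the start, and 0.0791% of all windows held such a match within 250 bases. AGGTCA, found in 14.0% of the windows, was found before Abcb11, Abcc2 and Abcg2 and in none of the other windows of the members. AGATAA, found in 9.99% of the windows, was found among the members before Abcg5 and Abcg8 only. The matches are letters in a window and were not tested for binding.

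Levels are given as CPM, a gene's reads relative to the size of its library, with library sizes scaled by the trimmed mean of M values (TMM). For single genes, whether groups overlapped was judged at these scaled levels only and was not repeated under other scalings. Abcb11, Abcb4, Abcg5 and Abcg8 were called higher in both hepatocyte groups than in hepatoblasts. Abcc2 and Atp8b1 had their highest means in mature hepatocytes and were not called between Diff. hepatocytes and hepatoblasts. Abcg2 and Slc47a1 were highest in mature hepatocytes and not higher in culture. Abcb1a was highest in Diff. hepatocytes and lowest in mature hepatocytes, and Atp7b was highest in hepatoblasts. Calls needed a p under 0.01 in edgeR's quasi-likelihood test after Benjamini-Hochberg adjustment over all tested genes, together with a log2 fold change beyond 1 in either direction. Between Diff. hepatocytes and hepatoblasts 5 of the 10 genes were called higher and 1 lower, with 28.9% of all tested genes called in either direction (14.9% higher and 14.0% lower). Between mature hepatocytes and hepatoblasts 7 were called higher and 2 lower, with 44.8% of all tested genes called (20.1% higher and 24.7% lower). Between Diff. and mature hepatocytes 1 was called higher in culture and 4 lower, with 35.8% of all tested genes called (20.2% higher and 15.6% lower). Over the 10 genes the median log2 fold change in these comparisons was 1.22, 1.70 and −0.89, and that of all tested genes was −0.01, −0.15 and 0.09. In Diff. hepatocytes against hepatoblasts, 7 of the 10 genes had all libraries of the first group above all of the second, and 2 had them all below, where 28.6% and 28.8% of all tested genes did. In mature hepatocytes against hepatoblasts 8 were entirely above and 2 entirely below (30.1% and 35.9% of all genes), and in Diff. against mature hepatocytes 1 was entirely above and 8 entirely below (32.4% and 29.2%). The comparisons share their libraries, so the 3 sets of values are not independent of each other. Without hepatoblast replicate 1, which stood apart in the erythroid markers described next, the counts of members called were again 5 and 1, 7 and 2, and 1 and 4. Without mature hepatocyte replicate 4 the total called between Diff. and mature hepatocytes was 3 in place of 5.

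**Figure D1:**
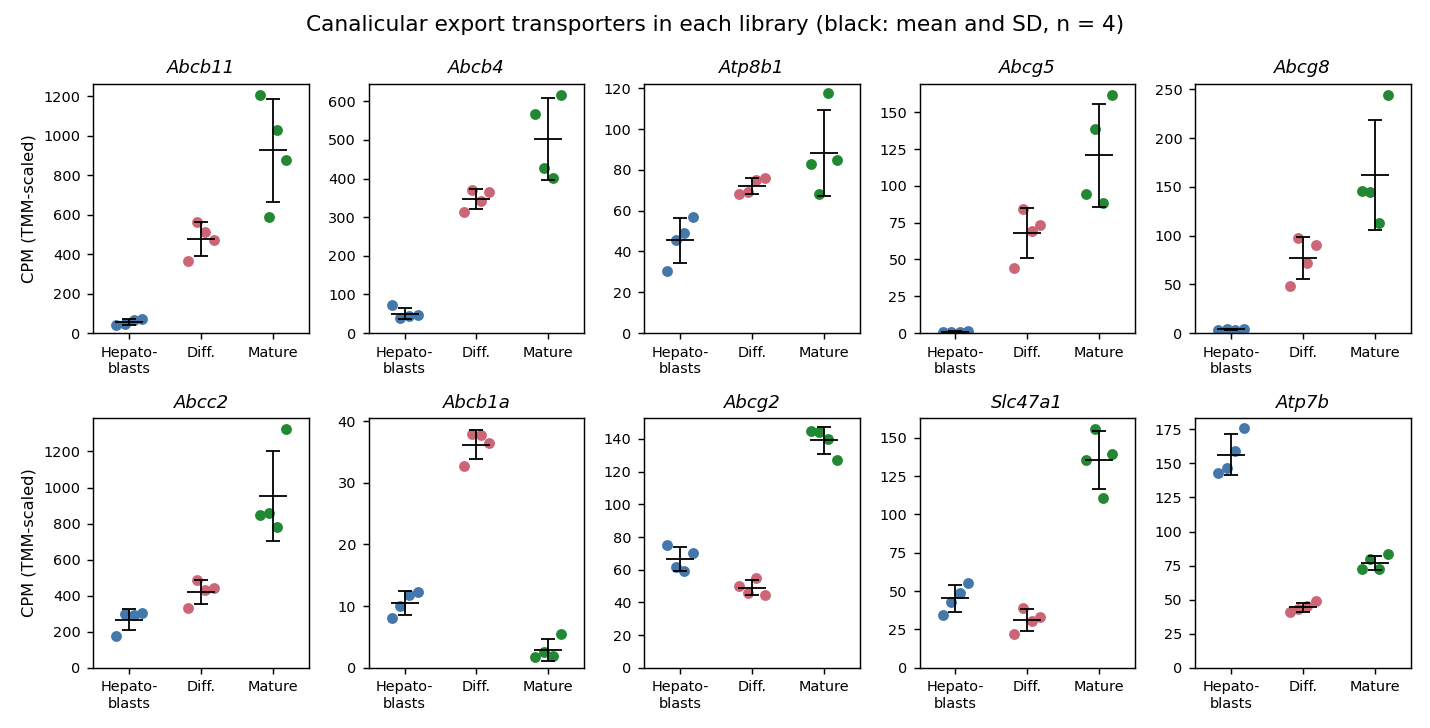
CPM of each transporter gene in each of the 12 libraries, on a linear axis that starts at 0 and differs between genes. Points are libraries, and black bars are the mean and SD of 4 libraries. Abcb11, Abcb4, Abcg5 and Abcg8 are lowest in hepatoblasts, Abcb1a is highest in Diff. hepatocytes (32.8 to 37.9 CPM), and Atp7b is highest in hepatoblasts (143 to 176 CPM).

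The library labels were checked with lists of marker genes. The summed level of 6 hepatoblast markers was at 41842 to 70065 CPM in hepatoblasts, at 37829 to 44146 in Diff. hepatocytes and at 65.9 to 109 in mature hepatocytes. The sum was carried by Afp and H19, at means of 18609 and 22234 CPM in Diff. hepatocytes. In Diff. hepatocytes 5 of the 6 markers were called lower than in hepatoblasts (median log2 fold change −1.73), among them Dlk1 (−5.23) and Lin28b (−3.56), and H19 was at 0.58 (adjusted p = 0.0159, not passed). The summed level of 8 mature hepatocyte markers was 29239 to 49708, 45091 to 51598 and 106778 to 149355 CPM. Most of this sum was Alb, at 27765 to 47162, 36999 to 43484 and 81003 to 118984 CPM. Of the 8 markers, 5 were called higher and 0 lower in Diff. hepatocytes than in hepatoblasts (median log2 fold change 4.38), where 14.9% and 14.0% of all genes were. Between Diff. and mature hepatocytes 7 were called lower and 0 higher (median −2.37), where 15.6% and 20.2% of all genes were. Markers of other cell types differed between the groups. The summed level of 7 bile duct markers was at 26.9 to 35.7 CPM in hepatoblasts, at 92.7 to 232.5 in Diff. hepatocytes and at 37.4 to 66.0 in mature hepatocytes, and that of 8 mesenchymal markers was 522 to 994.5, 1000 to 2377 and 43.8 to 60.6. Erythroid markers (8 genes) were at 293 to 2410 CPM in hepatoblasts, at 6.09 to 24 in Diff. hepatocytes and at 135 to 185 in mature hepatocytes. The highest erythroid sum, 2410 CPM, was that of hepatoblast replicate 1, which also had the lowest sum of hepatoblast markers. No marker of these lists was at 0 in all libraries of a group. The part of these cells in the levels below was not tested, and in bulk RNA fewer cells of a type and less RNA per cell cannot be told apart.

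Abcb11, the bile salt export pump and the driver of bile salt-dependent flow, was the gene with the highest level per exon length in both hepatocyte groups. It was at 41.2, 44.8, 64.1 and 72.3 CPM in the 4 hepatoblast libraries, at 364, 563, 512 and 470 CPM in Diff. hepatocytes and at 1206, 589, 1029 and 877.5 CPM in mature hepatocytes. The 3 groups did not overlap at these TMM-scaled levels. The level was 8.58-fold higher in Diff. hepatocytes than in hepatoblasts (log2 fold change 3.10 ± 0.25 SE, adjusted p = 2.25e-07) and 16.6-fold higher in mature hepatocytes than in hepatoblasts (4.06 ± 0.26, adjusted p = 9.7e-09). Diff. hepatocytes were below mature hepatocytes in every library, and the log2 fold change of −0.96 ± 0.23 had an adjusted p of 0.00242 but stayed inside the fold threshold. Without Diff. hepatocyte replicate 2 it was −1.05, and without mature hepatocyte replicate 2, the lowest of that group, it was −1.13, and both passed. With 1 library left out it ranged from −1.13 to −0.81, and over all alternative settings from −1.13 to −0.40.

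Abcb4, the floppase that moves phosphatidylcholine to the outer leaflet for release into bile, rose with Abcb11 in both hepatocyte groups. It was at 72.2, 40.0, 44.4 and 45.7 CPM in hepatoblasts, at 312, 370.5, 342 and 365 CPM in Diff. hepatocytes and at 567, 426, 401 and 617 CPM in mature hepatocytes. Hepatoblast replicate 1 was the highest of its group for Abcb4 and the lowest for Abcb11. Abcb4 was 6.87-fold higher in Diff. hepatocytes (2.78 ± 0.20, adjusted p = 7.69e-08) and 9.94-fold higher in mature hepatocytes (3.31 ± 0.20, adjusted p = 6.24e-09) than in hepatoblasts. Between Diff. and mature hepatocytes the log2 fold change was −0.53 ± 0.18 (adjusted p = 0.0212) and did not pass. That direction depended on the scaling, since it was 0.01 with library totals in place of TMM. The ratio of Abcb4 to Abcb11 per exon length within a library averaged 0.499 in hepatoblasts, 0.403 after culture and 0.303 in mature hepatocytes (geometric means, n = 4), and none of the 3 differences passed (exact permutation test, two-sided, p = 0.171 to 0.543).

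Atp8b1, a flippase that returns phosphatidylserine to the inner leaflet and is mutated in an inherited cholestasis, was the 1 member not called in any comparison. It was at 30.5, 45.7, 49.2 and 56.8 CPM in hepatoblasts, at 68.0, 69.3, 74.8 and 75.8 CPM in Diff. hepatocytes and at 82.8, 68.2, 118 and 84.7 CPM in mature hepatocytes. At these TMM-scaled levels all hepatoblast libraries were below all libraries of the other groups, while Diff. and mature hepatocytes overlapped. The log2 fold changes against hepatoblasts, 0.66 ± 0.18 in Diff. hepatocytes (adjusted p = 0.00687) and 0.96 ± 0.18 in mature hepatocytes (adjusted p = 0.000354), were inside the fold threshold. The second passed it without hepatoblast replicate 4 (1.07) or without mature hepatocyte replicate 2 (1.06). With 1 library left out it was as low as 0.78, and over all alternative settings as low as 0.12. Between Diff. and mature hepatocytes it was −0.30 ± 0.18 (adjusted p = 0.167) with TMM and 0.23 with library totals. Tmem30a, the subunit that Atp8b1 needs to leave the endoplasmic reticulum, was at 59.3 to 74.5 CPM in hepatoblasts, at 96.3 to 109 CPM in Diff. hepatocytes and at 242 to 270 CPM in mature hepatocytes.

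The proportion of the flippase to the floppase was higher in hepatoblasts than in the other groups. The within-library ratio of Atp8b1 to Abcb4 was 0.590, 1.60, 1.55 and 1.74 in hepatoblasts, from 0.261 to 0.306 in Diff. hepatocytes and from 0.192 to 0.411 in mature hepatocytes. The size of the ratio depends on the length used for Abcb4, whose annotated exons cover 9383 bases and whose longest transcript has 4079, while its fold differences between groups do not, and the same holds for the ratio to Abcb11 above. The hepatoblast libraries were above all others, by 4.35-fold against Diff. hepatocytes and 5.15-fold against mature hepatocytes. Each difference had p = 0.0286 in a two-sided exact permutation test, the smallest that 70 assignments of 8 libraries allow, and p = 0.0468 after Benjamini-Hochberg adjustment over the 18 ratio tests. Every ratio at this smallest p has the same adjusted p. Its size is set by how many of the 18 tests, which share libraries, reached that p. Hepatoblast replicate 1 was the lowest of its group, and without it the log2 differences moved from −2.12 to −2.49 and from −2.37 to −2.73. With 1 library fewer in the other group the exact p rose to 0.0571 for each Diff. hepatocyte library left out (−2.15 to −2.07) and for mature hepatocyte replicate 1, 2 or 4 (−2.32 to −2.25). Without mature hepatocyte replicate 3, the highest of its group, Diff. hepatocytes were above mature hepatocytes (0.49, exact p = 0.0286; with it 0.24, p = 0.4).

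Abcg5 and Abcg8 encode the subunits of a single heterodimer that exports cholesterol and plant sterols, and had the largest rises of the 10 genes. Abcg5 was at 0.774, 0.806, 0.907 and 1.49 CPM in hepatoblasts (24 to 45 reads), at 44.4, 84.4, 69.5 and 73.7 CPM in Diff. hepatocytes and at 94.7, 138, 88.3 and 161 CPM in mature hepatocytes. It was 68.3-fold higher in Diff. hepatocytes (6.09 ± 0.30, adjusted p = 4.18e-09) and 121-fold higher in mature hepatocytes (6.92 ± 0.31, adjusted p = 4.14e-10) than in hepatoblasts. At these TMM-scaled levels Diff. hepatocytes were below mature hepatocytes in every library. The log2 fold change of −0.83 ± 0.23 (adjusted p = 0.00594) was inside the fold threshold and ranged from −0.96 to −0.26 over all alternative settings. Abcg8 was at 2.90, 4.09, 3.50 and 4.47 CPM in hepatoblasts (90 to 137 reads), at 48.7, 97.0, 71.4 and 90.3 CPM in Diff. hepatocytes and at 146, 145, 113 and 244 CPM in mature hepatocytes. It was 20.5-fold higher in Diff. hepatocytes (4.36 ± 0.28, adjusted p = 4.07e-08) and 43.2-fold higher in mature hepatocytes (5.43 ± 0.30, adjusted p = 2.37e-09). Of the 4 genes called higher in both hepatocyte groups than in hepatoblasts, Abcg8 alone was called lower in Diff. than in mature hepatocytes (−1.08 ± 0.24, adjusted p = 0.00159), and this call was lost without Diff. hepatocyte replicate 1 (−0.91) or mature hepatocyte replicate 4 (−0.81) and with library totals (−0.53).

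The subunit transcripts of the sterol transporter were not equally abundant in hepatoblasts. The ratio of Abcg8 to Abcg5 per exon length was 2.71, 3.67, 2.79 and 2.17 in hepatoblasts, from 0.744 to 0.886 in Diff. hepatocytes and from 0.758 to 1.12 in mature hepatocytes. In both hepatocyte groups the transcripts were thus near 1 to 1, and in hepatoblasts Abcg8 was in excess in each library. The ratio was 3.43-fold lower in Diff. hepatocytes and 2.90-fold lower in mature hepatocytes than in hepatoblasts (exact permutation p = 0.0286, adjusted p = 0.0468 for each), and the Diff. and mature groups overlapped (exact permutation p = 0.171, and p = 0.0286 without mature hepatocyte replicate 2). The genes overlap by 82 exonic bases on opposite strands, and whether the authors' counting used the strand is not given in the sources used here.

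**Figure D2:**
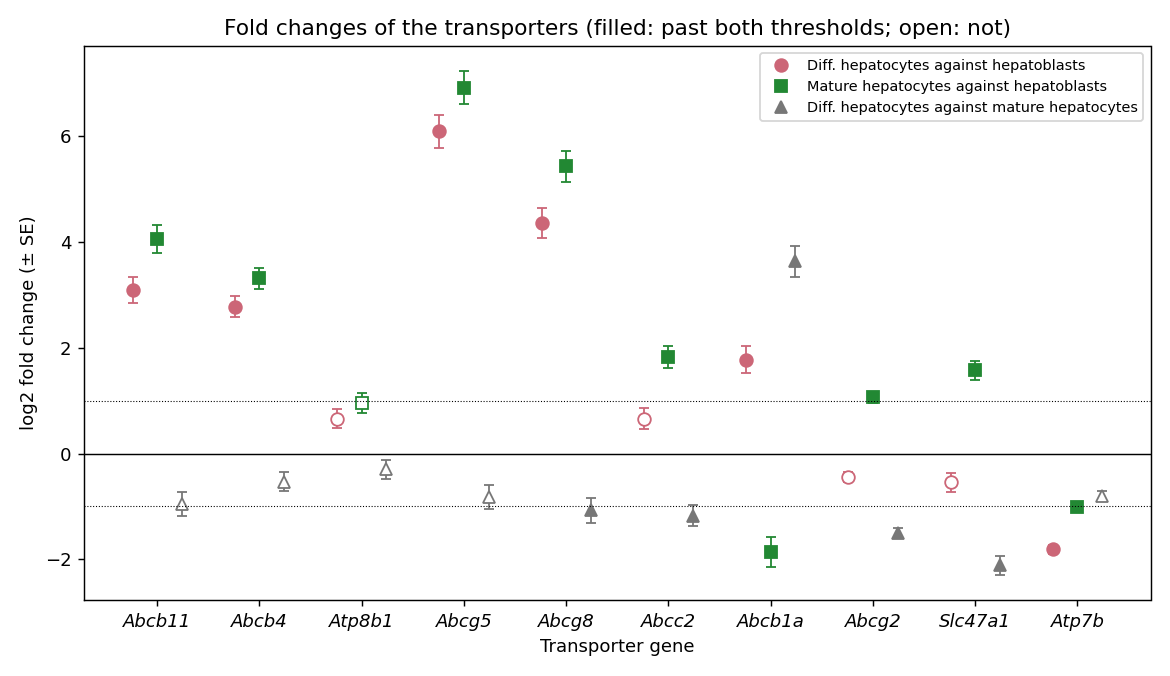
Log2 fold changes of the 10 genes in the 3 comparisons, with bars of ± 1 SE from edgeR over 12 libraries. Filled symbols were called (adjusted p under 0.01 and beyond the dotted lines at a log2 fold change of 1 in either direction), and open symbols were not. Abcg5 and Abcg8 have the largest rises (6.92 and 5.43 in mature hepatocytes), and Abcb1a is the only gene above the dotted line at 1 in the comparison of Diff. with mature hepatocytes (3.63).

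Abcc2, the pump for conjugated bilirubin and other organic anions, had the highest level per exon length of the 10 genes in hepatoblasts. It was at 177, 297, 292 and 304 CPM in hepatoblasts, at 330, 488, 430 and 443 CPM in Diff. hepatocytes and at 846.5, 859, 783.5 and 1326 CPM in mature hepatocytes. The groups did not overlap, and hepatoblast replicate 1 was far below the rest of its group. The log2 fold change in Diff. hepatocytes against hepatoblasts was 0.66 ± 0.20 (adjusted p = 0.0126) and did not pass. In mature hepatocytes Abcc2 was 3.57-fold higher than in hepatoblasts (1.83 ± 0.21, adjusted p = 3.01e-06). With library totals in place of TMM, which moved the median of all genes in that comparison from −0.15 to −1.0, this value was 0.98 and did not pass. Diff. hepatocytes were lower than mature hepatocytes (−1.17 ± 0.20, adjusted p = 0.000205), and the call was lost without mature hepatocyte replicate 4 (−0.98) and with library totals (−0.63).

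Abcc3, the related anion pump of the opposite, sinusoidal membrane, changed far more than Abcc2. Abcc3 was at 7.49 to 24.02 CPM in hepatoblasts, at 49.6 to 72.6 CPM in Diff. hepatocytes and at 455 to 901 CPM in mature hepatocytes. The within-library ratio of Abcc2 to Abcc3 was 4.93, 26.4, 24.1 and 22.3 in hepatoblasts, from 3.04 to 5.97 in Diff. hepatocytes and from 0.898 to 1.26 in mature hepatocytes. It fell 16.03-fold from hepatoblasts to mature hepatocytes and was 4.53-fold higher in Diff. than in mature hepatocytes (exact permutation p = 0.0286, adjusted p = 0.0468 for each). Without mature hepatocyte replicate 1, 3 or 4 the first p was 0.0571, at log2 differences of −3.99 to −3.94. The difference between Diff. hepatocytes and hepatoblasts, 3.54-fold, did not pass (exact p = 0.0857), and without hepatoblast replicate 1 its log2 value moved from −1.82 to −2.40 and the groups no longer overlapped (exact p = 0.0286).

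Abcb1a, a P-glycoprotein that exports lipophilic drugs, was higher in culture than in either freshly isolated group. It was at 8.03, 10.1, 11.8 and 12.3 CPM in hepatoblasts, at 32.8, 37.9, 37.7 and 36.4 CPM in Diff. hepatocytes and at 1.78, 2.5, 1.87 and 5.46 CPM in mature hepatocytes (26 to 88 reads). The groups did not overlap. Abcb1a was 3.43-fold higher in Diff. hepatocytes than in hepatoblasts (1.78 ± 0.25, adjusted p = 4.68e-05), 3.62-fold lower in mature hepatocytes than in hepatoblasts (−1.85 ± 0.28, adjusted p = 4.9e-05) and 12.4-fold higher in Diff. than in mature hepatocytes (3.63 ± 0.29, adjusted p = 1.54e-07). Its paralog Abcb1b, the other P-glycoprotein of rodents, was at 0.199 to 0.871 CPM in hepatoblasts, at 15.4 to 31.9 CPM in Diff. hepatocytes and at 1.49 to 3.08 CPM in mature hepatocytes. Abcb1b rose by 5.80 ± 0.40 on the log2 scale from hepatoblasts to Diff. hepatocytes (adjusted p = 6.38e-08). The ratio of Abcb1a to Abcb1b was 13.4 to 90.4 in hepatoblasts, from 1.5 to 3.58 in Diff. hepatocytes and from 1.18 to 5.35 in mature hepatocytes, with the hepatoblasts above the others (exact permutation p = 0.0286, adjusted p = 0.0468 against each). The size of this ratio depends on the lengths used (for Abcb1b 7990 bases of annotated exons and 4306 in the longest transcript), while its fold differences between groups do not. The genes resemble each other, and 12.5% of the 75-base sequences of Abcb1a transcripts and 8.13% of those of Abcb1b also occur in the other gene or in Abcb4, so reads could be split between them. For the other members this share was 1.30% (Abcb4) or 0. Abcb1a also shares 553 exonic bases (10.1% of its exons) with Gm42686 on the opposite strand, under the same open strand setting as Abcg5 and Abcg8.

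Abcg2, the breast cancer resistance protein that exports urate, porphyrins and drugs, was at 75.1, 61.8, 59.4 and 70.03 CPM in hepatoblasts, at 50.2, 45.9, 55.0 and 44.8 CPM in Diff. hepatocytes and at 145, 144.5, 140 and 127 CPM in mature hepatocytes. Every Diff. hepatocyte library was below every hepatoblast library, although the log2 fold change of −0.44 ± 0.10 (adjusted p = 0.00148) was inside the fold threshold. Mature hepatocytes were 2.09-fold higher than hepatoblasts (1.06 ± 0.10, adjusted p = 3.58e-07). This call was close to the threshold, since it was lost without hepatoblast replicate 3 (0.997), with a filter of at least 10 counts in every sample (0.94) and with library totals (0.21). Diff. hepatocytes were 2.84-fold below mature hepatocytes (−1.50 ± 0.10, adjusted p = 2.52e-08), and by −0.98 with library totals, which did not pass.

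Slc47a1, the exchanger MATE1 that releases organic cations for protons, was at 34.7, 43.1, 48.5 and 55.5 CPM in hepatoblasts, at 22.0, 39.2, 30.6 and 33.1 CPM in Diff. hepatocytes and at 136, 156, 111 and 139.5 CPM in mature hepatocytes. Hepatoblasts and Diff. hepatocytes overlapped (−0.54 ± 0.18, adjusted p = 0.0176, not passed). Mature hepatocytes were 2.98-fold above hepatoblasts (1.57 ± 0.18, adjusted p = 2.99e-06; with library totals the log2 value was 0.74 and did not pass). Diff. hepatocytes were 4.34-fold below mature hepatocytes (−2.12 ± 0.18, adjusted p = 3.27e-07), the largest deficit of the 10 genes in culture. Its paralog Slc47a2 was counted with 33 to 66 reads in hepatoblast libraries and with at most 4 reads in any other library.

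Atp7b, the copper pump that is mutated in Wilson disease, was the 1 member whose level was highest in hepatoblasts. It was at 143, 147, 159 and 176 CPM in hepatoblasts, at 40.9, 42.8, 45.3 and 48.8 CPM in Diff. hepatocytes and at 72.7, 79.8, 72.5 and 83.2 CPM in mature hepatocytes. The groups did not overlap. Diff. hepatocytes were 3.52-fold lower (−1.81 ± 0.09, adjusted p = 5e-09) and mature hepatocytes 2.03-fold lower (−1.02 ± 0.09, adjusted p = 2.82e-07) than hepatoblasts, and without hepatoblast replicate 4 the second value was −0.97 and no longer passed. Diff. hepatocytes were also below mature hepatocytes in every library, by −0.79 ± 0.09 on the log2 scale (adjusted p = 5.2e-06), inside the fold threshold. Over all alternative settings this value ranged from −0.84 to −0.23. Atp7a, the copper pump of most other tissues, stayed at 38.1 to 63.6 CPM in hepatoblasts and 44.8 to 56.9 CPM in Diff. hepatocytes and was at 4.36 to 7.53 CPM in mature hepatocytes. The ratio of Atp7b to Atp7a was 3.16 to 5.04 in hepatoblasts, from 0.966 to 1.45 in Diff. hepatocytes and from 12.9 to 24.6 in mature hepatocytes, and the groups did not overlap (exact permutation p = 0.0286, adjusted p = 0.0468 for each of the 3 comparisons). Cultured cells thus stood at 1.22 on average, 13.3-fold below mature hepatocytes, in a ratio that does not depend on library scaling. Its size depends on the length used for Atp7a, whose annotated exons cover 8734 bases and whose longest transcript has 4900. Whether Atp7b or Atp7a is the higher in cultured cells therefore depends on that length, while the fold differences between groups do not.

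**Figure D3:**
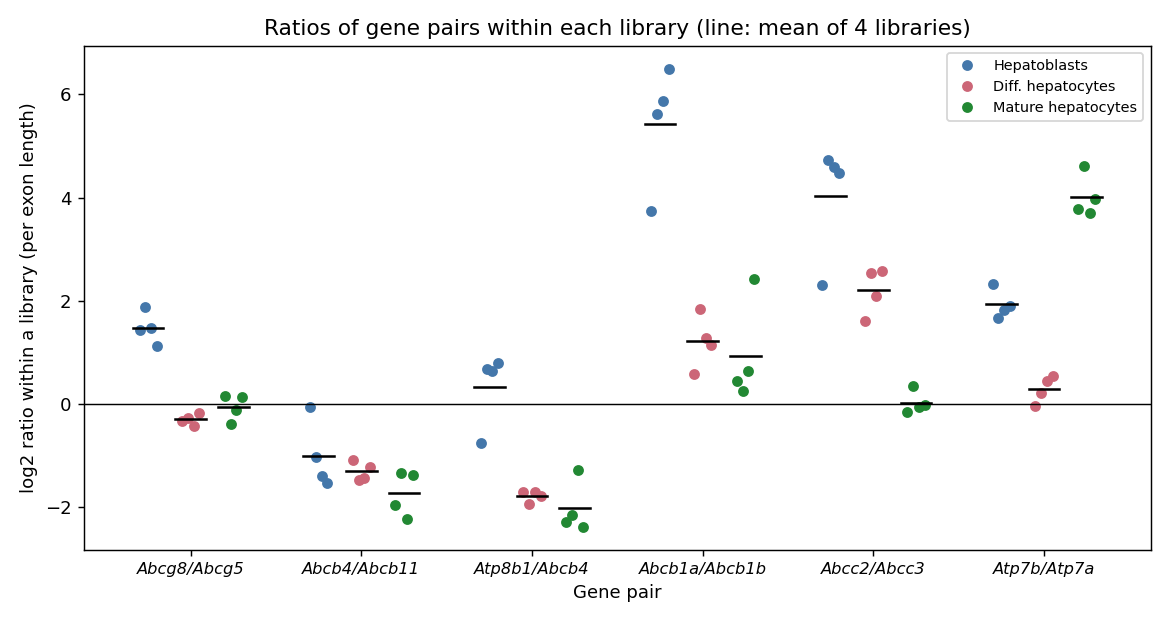
Log2 ratios of gene pairs per exon length within each of the 12 libraries. Points are libraries and lines are means of 4. The pair Atp7b/Atp7a is lowest in Diff. hepatocytes (0.28 on average) and highest in mature hepatocytes (4.02), whereas Abcg8/Abcg5 and Abcb1a/Abcb1b set hepatoblasts apart from the hepatocyte groups.

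Levels were compared between genes as RPKM, the CPM divided by the length of a gene's exons in kilobases. In hepatoblasts the order was Abcc2 (31.3 ± 7.06 RPKM, SD, n = 4), Atp7b (24.03 ± 2.30), Slc47a1 (13.4 ± 2.59), Abcb11 (10.8 ± 2.91), Abcg2, Atp8b1, Abcb4, Abcb1a, Abcg8 and Abcg5 (0.367 ± 0.124). In Diff. hepatocytes it was Abcb11 (92.7 ± 16.4), Abcc2 (49.6 ± 7.78), Abcb4 (37.0 ± 2.81), Abcg5 (25.1 ± 6.24), Abcg8 (20.5 ± 5.79), Atp8b1, Slc47a1, Atp7b, Abcb1a and Abcg2 (6.01 ± 0.570). In mature hepatocytes the first 5 places were held in the same order, by Abcb11 (180 ± 50.7), Abcc2 (112 ± 29.3), Abcb4 (53.6 ± 11.2), Abcg5 (44.5 ± 12.9) and Abcg8 (43.2 ± 15.1), followed by Slc47a1 (40.0 ± 5.53), Abcg2, Atp8b1, Atp7b and Abcb1a (0.530 ± 0.317). Many neighbours in these orders overlapped between libraries. In mature hepatocytes the neighbours that did not overlap were Abcc2 and Abcb4, Slc47a1 and Abcg2, and Atp7b and Abcb1a. In Diff. hepatocytes they were Abcb11 and Abcc2, Abcb4 and Abcg5, and Abcg8 and Atp8b1. In hepatoblasts they were Atp7b and Slc47a1, Abcb4 and Abcb1a, Abcb1a and Abcg8, and Abcg8 and Abcg5. Several places depended on the length used. With the longest transcript in place of all exons Abcb4 was at 123 RPKM in mature hepatocytes and 85.2 in Diff. hepatocytes, above Abcc2 in both, and at 12.4 in hepatoblasts, where it moved from place 7 to 4. With that length Slc47a1 (45.3) was above Abcg8 (44.2) in mature hepatocytes, and the last place in Diff. hepatocytes was held by Atp7b in place of Abcg2.

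The summed level of the 10 transporters was 85 to 119 RPKM in hepatoblasts, from 207 to 304 in Diff. hepatocytes and from 437 to 599 in mature hepatocytes, without overlap. Its make-up differed between embryonic cells and both hepatocyte groups. Abcb11, Abcb4, Abcg5 and Abcg8, which export bile salts, phospholipid and sterols, held 17.1% ± 2.24 (SD, n = 4) of the sum in hepatoblasts, against 66.2% ± 1.37 in Diff. hepatocytes and 62.1% ± 4.37 in mature hepatocytes. This description groups genes by their levels seen here, and the shares depend on the exon lengths used. Atp7b fell from 23.4% ± 1.63 of the sum in hepatoblasts to 2.62% ± 0.365 and 2.33% ± 0.344. Abcb1a held 2.53% ± 0.261 in Diff. hepatocytes and 0.100% ± 0.0479 in mature hepatocytes. Abcb11 had its widest range of shares in mature hepatocytes, from 26.2% to 42.6%, against 33.3% to 36.6% in Diff. hepatocytes.

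**Figure D4:**
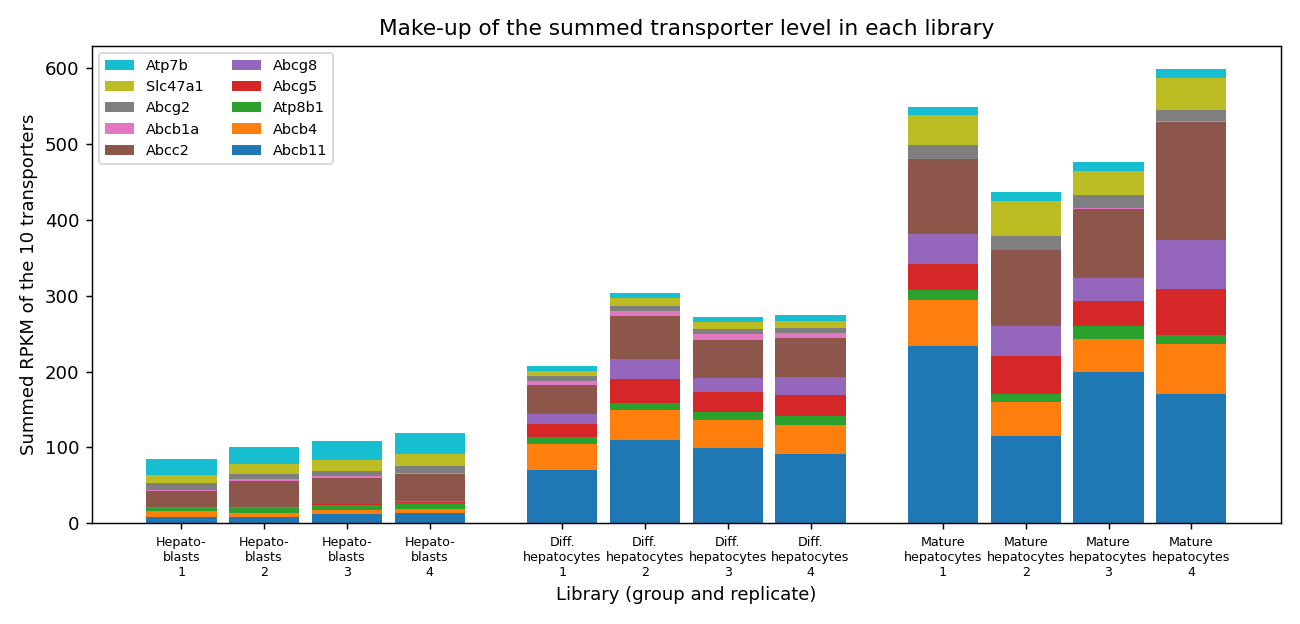
RPKM of the 10 transporters stacked in each library, with groups set apart by gaps. The sums are 85 to 119 in hepatoblasts, from 207 to 304 in Diff. hepatocytes and from 437 to 599 in mature hepatocytes. Atp7b and Abcc2 take up much of the bar in hepatoblasts, and Abcb11 takes the largest part in every library of both hepatocyte groups.

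Profiles over the 12 libraries were compared as the root mean square difference of log2 CPM, each gene centred on its own mean, among 9751 genes with a mean of at least 10 CPM in a group. These values are descriptions over libraries that share their groups. Between members the smallest differences were those of Abcg2 and Slc47a1 (0.41), Abcb11 and Abcb4 (0.50) and Atp8b1 and Abcc2 (0.51), and the pair Abcg5 and Abcg8 was at 0.77. Over all 9751 genes, Abcb11 was nearest to Ttpa (0.21), which carries vitamin E, then Gc and Akr1d1, an enzyme of bile acid synthesis. Abcb4 was nearest to Cisd1 (0.21), Zadh2 and Crebl2. Abcg5 was nearest to Slc10a1 (0.36), the bile salt uptake carrier NTCP of the opposite membrane, then Cfhr2 and Arg1. Abcg8 was nearest to 2210408F21Rik (0.37), Gls2 and Plscr2. Abcc2 was nearest to Reep6 (0.15), Tspan12 and Stard10, and Atp8b1 to Insig1 (0.11), Rassf8 and Pid1. Slc47a1 was nearest to another transporter of the Abcc2 family, Abcc6 (0.13), then Pxmp2 and Gckr, and Abcg2 to Dalrd3 (0.13), Pomp and Tapt1. Abcb1a was nearest to Fam110c (0.37), Rbbp7 and Ddr2, and Atp7b to Lrpap1 (0.15), Ankrd26 and Alg6.

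Related genes of the same families were counted beside the members. Of 14 tested paralogs, 3 were called higher and 3 lower in Diff. hepatocytes than in hepatoblasts, 3 higher and 7 lower in mature hepatocytes than in hepatoblasts, and 6 higher and 2 lower in Diff. than in mature hepatocytes, with medians of −0.23, −1.81 and 1.43. Of all genes, 14.9% were called higher and 14.0% lower in the first comparison, 20.1% and 24.7% in the second and 20.2% and 15.6% in the third. Abcb1b, Abcc3 and Abcc4 were higher in culture than in hepatoblasts. The sinusoidal pumps Abcc3 and Abcc6 rose in mature hepatocytes (log2 fold changes of 5.70 and 1.67). Abcc4, a further pump of the sinusoidal side, was at 44.8 to 103 CPM in Diff. hepatocytes and at 2.37 to 4.47 CPM in mature hepatocytes, a log2 difference of 4.57 ± 0.26 (adjusted p = 6.52e-09). Abcc5 (4.26) and Atp8b2 (3.52) were also higher in Diff. than in mature hepatocytes. Abcg4 was counted with 110 to 755 reads in hepatoblast libraries and with at most 6 reads in the others, and its highest count was in hepatoblast replicate 1, the library with the highest erythroid sum.

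Partner genes encode proteins that escort, anchor or deliver these transporters. Of 19 such genes, 1 was called in Diff. hepatocytes against hepatoblasts, Stx3, a syntaxin of the apical membrane (log2 fold change 1.71 ± 0.10, adjusted p = 9.41e-09), where 28.9% of all genes were called. Without hepatoblast replicate 1, 2 of the 19 were called higher. In mature hepatocytes against hepatoblasts 2 were called higher, Tmem30a (1.93) and the copper chaperone Atox1 (1.20), and 2 lower, Ezr (−4.21) and Cgn (−1.03), where 44.8% of all genes were called. In Diff. against mature hepatocytes 3 were called higher and 3 lower, where 35.8% of all genes were called. Ezr, Rdx and Msn link membrane proteins to actin. Rdx, the linker of the canalicular membrane, was at 221 CPM in Diff. hepatocytes and at 341 CPM in mature hepatocytes and was inside the fold threshold (−0.63, adjusted p = 0.000195). Ezr (3.91) and Msn (2.05) were higher in Diff. than in mature hepatocytes, whereas the scaffold Slc9a3r1, which binds Abcc2 and other apical proteins, was lower (−1.58). The median log2 fold changes of the 19 genes in the 3 comparisons were −0.01, 0.08 and −0.08.

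Of 10 other proteins of the canalicular surface, 3 were called higher and 4 lower in Diff. hepatocytes than in hepatoblasts, 6 higher and 1 lower in mature hepatocytes than in hepatoblasts, and 0 higher and 6 lower in Diff. than in mature hepatocytes by edgeR, with medians of −1.13, 2.24 and −1.82. The shares of all genes called higher and lower were 14.9% and 14.0%, 20.1% and 24.7%, and 20.2% and 15.6%. The water channel Aqp8 rose in Diff. hepatocytes (3.82 ± 0.37, adjusted p = 1.39e-06) and was not called between Diff. and mature hepatocytes (−0.45, adjusted p = 0.243). Dpp4, a surface peptidase, fell in culture (−2.82) and was lower in Diff. than in mature hepatocytes (−5.69), as was the ectoenzyme Enpp3 (−3.87). Ceacam1, an adhesion protein, was higher in mature hepatocytes than in hepatoblasts (4.66 ± 0.24, adjusted p = 1.35e-09) and intermediate in culture. Npc1l1, which takes cholesterol up from bile and so acts against Abcg5 and Abcg8, was counted with 35 to 82 reads in hepatoblast libraries and with at most 5 reads in any other library.

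Regulators known to act on some of these genes were counted as a list. Of 15 genes, 6 were called higher and 0 lower in Diff. hepatocytes than in hepatoblasts, 9 higher and 0 lower in mature hepatocytes than in hepatoblasts, and 0 higher and 6 lower in Diff. than in mature hepatocytes by edgeR, against the shares of all genes given above. The median log2 fold changes of the 15 genes were 0.60, 1.41 and −0.82. Nr1h4, the bile acid receptor, was at 6.21 to 10.7 CPM in hepatoblasts, at 44.5 to 55.4 CPM in Diff. hepatocytes and at 147 to 205 CPM in mature hepatocytes, without overlap. Its target Nr0b2 (SHP), a repressor that closes the feedback on bile acid synthesis, was at 0.418 to 0.777 CPM, 5.66 to 10.6 CPM and 39.9 to 96.7 CPM. Nr1i3, the xenobiotic receptor CAR, was at 0.712 to 1.09 CPM, 3.63 to 6.20 CPM and 36.5 to 63.9 CPM. The LXR gene Nr1h3 was not called in Diff. hepatocytes against hepatoblasts (0.27 ± 0.12, adjusted p = 0.0708) and was higher in mature hepatocytes (2.11 ± 0.12, adjusted p = 4.8e-09). Ahr, the dioxin receptor, had a higher mean in culture than in the other groups, at 73.4 CPM against 17.1 in hepatoblasts and 51.3 in mature hepatocytes, although Diff. and mature hepatocytes did not pass the test (0.52, adjusted p = 0.0239). Abcc6, Cgn, Rdx, Nr1h3 and Ahr were chosen for naming after their values were seen.

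**Figure D5:**
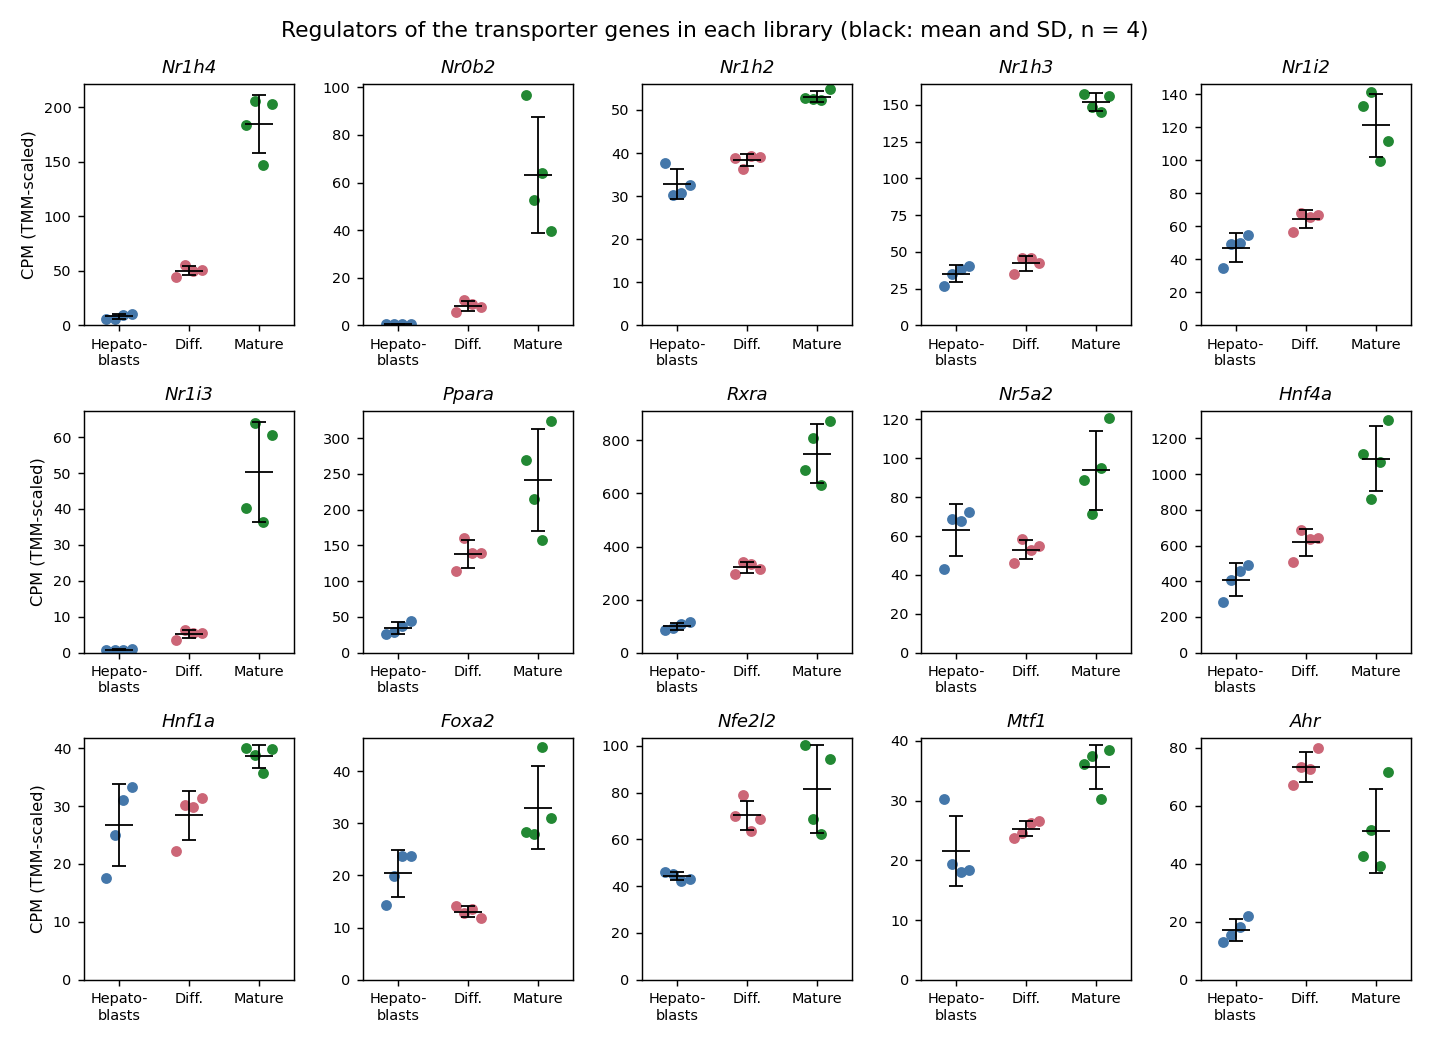
CPM of the 15 listed regulators in each of the 12 libraries, on linear axes that start at 0 and differ between genes. Points are libraries, and black bars are the mean and SD of 4 libraries. Nr1h4, Nr0b2 and Nr1i3 step up from hepatoblasts to Diff. to mature hepatocytes without overlap, while Nr1h3 is at 42.3 CPM in Diff. hepatocytes and at 152 CPM in mature hepatocytes.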

How the data were processed

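The authors made strand-specific poly(A) libraries, per their methods, read them as 75-bp single reads, aligned them to GRCm38 with STAR 2.5.2b (version per the submitters' processing notes) and deposited raw counts per gene for 12 libraries. Which strand setting the counts used is not given in the sources used here. Symbols, positions and exon lengths came from GENCODE M21 (53620 of 53715 identifiers found). In R 4.3.3, edgeR 4.0.16 kept genes that exceeded 10 counts in at least 1 library, scaled libraries by TMM and fitted the quasi-likelihood test with group as the only term over all 12 libraries, with Benjamini-Hochberg adjustment over 17779 genes. Calls needed an adjusted p under 0.01 with a log2 fold change beyond 1 in either direction. Tested on simulated data of 16781 genes for Diff. hepatocytes against hepatoblasts, it called 197 of 200 changed genes and 2 unchanged ones. How it performs with as many changed genes as the 5145 called in that comparison was not tested. The 6 within-library ratios were compared by two-sided exact permutation tests. DESeq2 1.42.0, other scalings, filters, thresholds, a replicate block and fits without each library were the alternatives. Outside the members, genes were named by a rule: of each list, the 3 called genes with the largest absolute log2 fold change in each comparison, the genes of the ratios and the 3 profiles nearest to each member, with exceptions marked and 1 such gene not reported here. Endothelial, macrophage and haematopoietic progenitor markers, also counted, are given in the closing section. Members and lists were chosen with earlier results of these data known. Replicates are those the submitters call biological. The p-values of edgeR set a difference between groups against the spread between libraries within groups. Those of the exact tests set it against the differences under all reassignments of the libraries. For hepatoblasts and Diff. hepatocytes the cells of a replicate were pooled from several embryonic livers.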

Additional observations from a re-analysis of the deposited data

Results flagged for a closer look

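In 51 groups of 4 libraries (the levels of the 10 members, the 6 ratios and the summed level in each of the 3 groups), 5 held a library whose gap to the nearest other was larger than Dixon's 95% limit, against 2.55 that chance gives at 1 in 20. Abcc2 was at 177.4 CPM in hepatoblast replicate 1 against 292.2 to 303.6 CPM in the other hepatoblast libraries, and at 1326 CPM in mature hepatocyte replicate 4 against 783.5 to 859.3 CPM in the others. The ratio of Atp8b1 to Abcb4 was 0.5897 in hepatoblast replicate 1 against 1.549 to 1.735, and 0.4111 in mature hepatocyte replicate 3 against 0.1917 to 0.2234. The ratio of Abcb1a to Abcb1b was 5.346 in mature hepatocyte replicate 4 against 1.185 to 1.555.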

How the results depend on the processing

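With library totals in place of TMM the median log2 fold change of all genes moved from −0.01 to −0.34 (Diff. hepatocytes against hepatoblasts), from −0.15 to −1.0 (mature hepatocytes against hepatoblasts) and from 0.09 to 0.62 (Diff. against mature hepatocytes), and the share of calls that were higher moved from 51.5% to 35.4%, from 44.9% to 20.2% and from 56.4% to 75.6%. With library totals without the 50 most abundant genes the second and the third share were 24.5% and 76.5%. Between Diff. and mature hepatocytes Abcb4 then changed sign (0.008 with totals, 0.035 without the 50 genes), as did Atp8b1 (0.230 and 0.257), and 2 members were called under either in place of 5. No other member changed direction in any of the 3 comparisons.

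With the fold threshold inside the test DESeq2 called 5 members in place of 9 in mature hepatocytes against hepatoblasts and 3 in place of 5 in Diff. against mature hepatocytes, and edgeR's glmTreat called 3 in the latter. The calls so lost were those of Abcb1a, Abcg2, Slc47a1 and Atp7b in the former, of which glmTreat lost Abcg2 and Atp7b, and those of Abcg8 and Abcc2 in the latter under both. DESeq2 so used also lost Abcb1a in Diff. hepatocytes against hepatoblasts. At an adjusted p under 0.05 with no fold threshold, 10 members in place of 6 were called in Diff. hepatocytes against hepatoblasts and 9 in Diff. against mature hepatocytes. Leaving out 1 library gave 6 calls throughout, 8 to 10 and 3 to 6 in the 3 comparisons, with 3 when mature hepatocyte replicate 4 was left out. The ratio of Abcb4 to Abcb11 in Diff. hepatocytes against hepatoblasts ranged from −0.481 to 0.009 when 1 library was left out, and changed sign without hepatoblast replicate 1. The single values of members held their direction and their side of the threshold in 105, 97 and 91 of 110 cases under the other settings and in 120, 116 and 115 of 120 cases when 1 library was left out.

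Over all genes, 5145 calls in Diff. hepatocytes against hepatoblasts became 2504 (DESeq2, threshold inside), 2966 (glmTreat), 2634 (at least 10 counts in every sample) and 10615 (adjusted p under 0.05 alone). The 7971 calls in mature hepatocytes against hepatoblasts became 4923, 5750, 4379 and 12870, and the 6362 in Diff. against mature hepatocytes became 3528, 4221, 3107 and 11580.

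With the replicate number as a block, 6, 9 and 5 members were called, as without it. In their deviations from the group means, libraries with the same number correlated at −0.059 to 0.324 in Diff. hepatocytes against hepatoblasts (0.324, −0.059, 0.246 and 0.184), at −0.031 to 0.092 in mature hepatocytes against hepatoblasts and at −0.081 to 0.087 in Diff. against mature hepatocytes. A library matched its own number best in 3, 2 and 0 of 4 cases, a hint from the data in the first comparison. Since not every pair was over 0.1, the numbers were not taken as a pairing, and the exact tests of the ratios take no account of them. Depth limited Abcg5 in hepatoblasts (24 to 45 reads), Abcb1a in mature hepatocytes (26 to 88) and Abcb1b in hepatoblasts (6 to 27).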

Other observations

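The remaining marker lists also differed between the groups. The summed level of 8 endothelial markers in hepatoblasts was 43.4 to 145 CPM, that in Diff. hepatocytes was 28.7 to 32.0 CPM and that in mature hepatocytes was 131 to 237 CPM. Macrophage markers (8 genes) were at 80.9 to 345 CPM, 35.0 to 148 CPM and 113 to 220 CPM, and markers of haematopoietic progenitors (5 genes) at 12.1 to 87.2 CPM, 4.84 to 15.7 CPM and 8.73 to 14.6 CPM. Their part in the levels of the transporters was not tested.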
